A study of Homo sapiens with 6 samples.

Results

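IFI27, IFI35, IFITM3, PSMB9, TAP1, IRF1 and CD274 are genes that interferons induce, and several of them serve the presentation of antigens. All 7 had a probe set in the expression table, 1 each, out of 11584 genes measured. They were singled out because earlier results of these arrays were known, so their values in the knockdown are given as a description and carry no test. The arrays were Affymetrix Human Genome U133 Plus 2.0, on which short oligonucleotides grouped in probe sets read each transcript, and the values are log2 expression values.

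The cells were HEK293 T-REx Flp-In, a line from human embryonic kidney. Every group, controls included, was made from the stable line in which doxycycline switches on FLAG/HA-tagged LIN28B, a protein that binds RNA and keeps let-7 microRNAs from maturing. There were 3 groups of 2 arrays: mock-transfected cells with the transgene not induced, mock-transfected cells with the transgene induced, and cells transfected with siRNA against LIN28B with the transgene not induced. Per the labels, induction before crosslinking used 250 ng/ml doxycycline and lasted 15 to 20 h, and no time is stated for the cells put on the arrays. None of the arrays used here came from cells given a non-targeting siRNA, so loss of LIN28B and siRNA transfection cannot be told apart. Whether replicates were separate cultures is not said in the labels; p-values therefore cover the spread between these arrays alone, and that spread may be technical.

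Interferons bind receptors at the cell surface and activate JAK kinases, which phosphorylate STAT transcription factors. Type I interferons act largely on the interferon-stimulated response element, and interferon gamma on the gamma-activated site. IRF1, itself induced by interferon gamma, then acts on similar elements of later genes, among them the immunoproteasome subunits, the TAP transporter and HLA class I genes, which cut, carry and display peptides for T cells.

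The bases before the start of each member are shown because elements of this kind lie in 6 of the 7 windows, though no one element lies in all. Sequences are from RefSeq, build GRCh38.p14, the 250 bases before the first start listed for each gene, 5′ to 3′ on the gene's strand. All 7 members had an entry. Capitals mark matches on either strand to the interferon-stimulated response element core (GAAA, then any 2 bases, then GAAA), the gamma-activated site TTCNNNGAA, the NF-kB consensus and the TATA box TATAAA. Capitals of elements that overlap run together.
IFI27, chr14:94110486-94110735, plus strand: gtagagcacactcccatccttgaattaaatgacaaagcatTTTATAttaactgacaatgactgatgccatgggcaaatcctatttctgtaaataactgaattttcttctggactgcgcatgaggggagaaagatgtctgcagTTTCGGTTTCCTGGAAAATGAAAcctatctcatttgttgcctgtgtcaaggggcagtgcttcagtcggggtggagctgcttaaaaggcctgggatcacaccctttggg
IFI35, chr17:43006534-43006783, plus strand: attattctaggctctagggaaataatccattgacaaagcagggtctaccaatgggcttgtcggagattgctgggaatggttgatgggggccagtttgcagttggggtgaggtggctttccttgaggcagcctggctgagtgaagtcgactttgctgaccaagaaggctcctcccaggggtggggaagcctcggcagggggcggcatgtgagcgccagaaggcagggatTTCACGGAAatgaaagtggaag
IFITM3, chr11:320861-321110, minus strand: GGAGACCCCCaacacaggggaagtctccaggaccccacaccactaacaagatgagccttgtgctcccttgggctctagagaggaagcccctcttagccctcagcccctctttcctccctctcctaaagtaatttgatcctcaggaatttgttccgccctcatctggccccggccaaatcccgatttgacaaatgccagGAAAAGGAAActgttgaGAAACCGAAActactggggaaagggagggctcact
PSMB9, chr6:32853942-32854191, plus strand: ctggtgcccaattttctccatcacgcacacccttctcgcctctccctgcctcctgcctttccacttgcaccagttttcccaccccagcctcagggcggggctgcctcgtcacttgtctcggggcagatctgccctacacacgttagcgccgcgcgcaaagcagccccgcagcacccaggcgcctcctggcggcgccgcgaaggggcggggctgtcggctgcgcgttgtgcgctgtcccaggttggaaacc
TAP1, chr6:32853705-32853954, minus strand: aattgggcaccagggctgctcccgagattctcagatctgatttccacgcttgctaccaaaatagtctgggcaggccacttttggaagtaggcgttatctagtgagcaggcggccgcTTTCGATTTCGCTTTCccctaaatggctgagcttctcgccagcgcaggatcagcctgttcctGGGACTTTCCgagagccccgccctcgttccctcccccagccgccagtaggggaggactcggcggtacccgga
IRF1, chr5:132490774-132491023, minus strand: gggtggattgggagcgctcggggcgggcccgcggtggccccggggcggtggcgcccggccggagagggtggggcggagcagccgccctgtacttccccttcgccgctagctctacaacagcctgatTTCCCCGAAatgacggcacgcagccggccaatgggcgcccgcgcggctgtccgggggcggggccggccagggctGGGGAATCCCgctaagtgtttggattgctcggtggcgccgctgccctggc
CD274, chr9:5450292-5450541, plus strand: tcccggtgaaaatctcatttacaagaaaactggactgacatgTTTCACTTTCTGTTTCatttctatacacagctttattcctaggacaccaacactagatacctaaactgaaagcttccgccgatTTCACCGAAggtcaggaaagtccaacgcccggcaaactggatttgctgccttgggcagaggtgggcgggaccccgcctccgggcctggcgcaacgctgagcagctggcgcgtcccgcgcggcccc
The response element core was in 4 of the 7 windows, those of IFI27, IFITM3, TAP1 and CD274, against 3.07% of 27303 windows of the same length, 1 for each gene with an entry in the RefSeq promoter set. In each of the 4 it matched at 2 places. In IFI27 these lay at -108 to -99 and -95 to -86 from the start, in IFITM3 at -52 to -43 and -35 to -26. In TAP1 (-134 to -125 and -128 to -119) and CD274 (-208 to -199 and -202 to -193) the pairs overlapped each other. The gamma-activated site was in 4 windows, of IFI27, IFI35, IRF1 and CD274, against 6.78% of all, and in IFI27 it overlapped both response element matches. The NF-kB consensus was in 3, of IFITM3, TAP1 and IRF1, against 9.57% of all, and the TATA box in 1, on the opposite strand of IFI27, against 11.1%.

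The window of PSMB9 held none of these letters. PSMB9 and TAP1 are neighbours that start in opposite directions with 487 bases between their starts, and their windows share 13 bases. The matches in the window of TAP1 thus lie between the starts, upstream of PSMB9 as well but outside the window printed for it. A shorter IRF element, AANNGAAA, was added to the search after the sequences had been seen and lies within every match to the longer core. It was in the windows of 5 members (the 4 above and IFI35, at -15 to -8) and in 20.6% of all windows. A match describes letters only, and whether any factor was bound was not measured here.

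**Figure D1:**
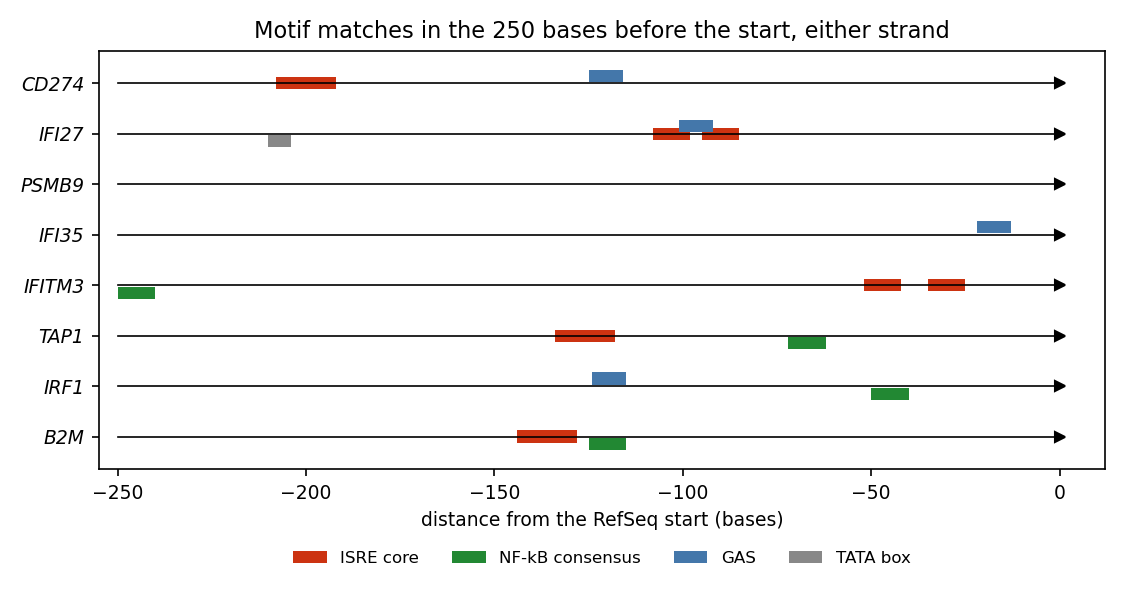
Positions of the motif matches (coloured boxes) along the 250 bases before the RefSeq start of each member and of B2M, which is no member and was added after its value was seen; the horizontal axis is the distance from the start in bases and the arrowhead is the start. ISRE is the interferon-stimulated response element and GAS the gamma-activated site. Response element cores lie in the windows of CD274, IFI27, IFITM3, TAP1 and B2M, and the window of PSMB9 is empty.

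LIN28B was reduced in the cells given siRNA, to 18.7% of the mock level (log2 difference -2.42, SE 0.08, limma adjusted p = 5.02e-07). Array medians were 7.126 to 7.177, and arrays of 1 group correlated at 0.9899 to 0.9937 over probe sets, which are not independent replicates. All but 1 of the 13008 probe sets lay above 5 on at least 2 arrays, and the sources used here do not give the rule that chose them. A gene low in mock cells could thus enter the table through the knockdown arrays. IFI27 and CD274, with 101 genes of this kind in all, exceeded 5 on the knockdown arrays alone, and so had to differ to be in the table. PSMB9 was above 5 on the knockdown and induced arrays and on neither array of cells not induced. The other 4 members were above 5 on every array.

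Of the effector genes, IFI27, which encodes a small mitochondrial and nuclear membrane protein, read 4.54 and 4.46 in mock cells not induced, 4.36 and 4.51 in mock cells induced, and 5.53 and 5.92 in the knockdown. Both knockdown arrays lay above all 4 mock arrays, with a gap wider than the mock spread. The log2 difference from cells not induced was 1.23 (SE 0.20), a 2.34-fold higher level. IFITM3, which encodes a membrane protein that hinders the entry of enveloped viruses, read 7.36 and 7.48, then 7.29 and 7.44, and 7.97 and 8.11 in the same order. Here too the knockdown arrays were apart from all mock arrays, by 0.62 (SE 0.11) or 1.53-fold against cells not induced. IFI35, which encodes a partner of the interferon-induced protein NMI, read 5.81 and 5.51, then 5.87 and 5.76, and 6.51 and 6.40. The groups of knockdown and mock arrays did not overlap, and the difference was 0.79 (SE 0.15), or 1.73-fold. The probe sets of IFITM3, IFI35 and TAP1 may also read transcripts of related genes. In RNA from a population, a higher level per cell and more cells with the transcript cannot be told apart.

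Among the antigen presentation members, PSMB9, an inducible catalytic subunit that replaces PSMB6 in the immunoproteasome, had a stepped pattern. It read 4.71 and 4.75 in mock cells not induced, 5.41 and 5.30 in mock cells induced, and 5.73 and 6.01 in the knockdown. None of the 3 groups overlapped another. The knockdown was 1.14 (SE 0.17) above cells not induced, or 2.20-fold, and 0.52 (SE 0.17) above induced cells, or 1.43-fold.

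TAP1, a subunit of the transporter that carries peptides into the endoplasmic reticulum, read 6.97 and 7.04 in mock cells not induced, 7.22 and 6.996 in mock cells induced, and 7.57 and 7.17 in the knockdown. Its second knockdown array lay below the first induced array, so these groups overlapped. The difference from cells not induced was 0.37 (SE 0.15), and 1 knockdown array decided its size: the first alone gave 0.56 and the second alone 0.17. Against induced cells it was 0.26, with 0.46 and 0.07 in the same order, and 0.15 without replicate 2 of the induced cells. PSMB9, whose start faces that of TAP1, read 2.20-fold higher in the knockdown than in cells not induced, where TAP1 read 1.29-fold higher. Against induced cells the folds were 1.43 and 1.20. PSMB9 read under 5 in cells not induced, near the bottom of the scale, and TAP1 did not. The difference between the pair was not tested.

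IRF1, the transcription factor among the members, read 5.92 and 5.86, then 5.79 and 5.97, and 6.09 and 6.06. The knockdown arrays were the highest but lay close to the mock arrays. The log2 difference was 0.18 (SE 0.14) from cells not induced and 0.19 (SE 0.14) from induced cells, and the latter was 0.10 without replicate 1 of the induced cells. CD274, the gene for the checkpoint ligand PD-L1, which binds PD-1 on T cells, read 3.93 and 3.17, then 3.30 and 4.02, and 5.26 and 5.01. The mock arrays of each group were far apart, with SDs of 0.54 and 0.51, but all lay below both knockdown arrays. The difference from cells not induced was 1.58 (SE 0.32), the widest error of the 7. Its mock values were among the lowest of all genes in the table, so no fold is given. Mock values of CD274, IFI27 and PSMB9 in cells not induced were under 5, near the bottom of the scale, where the correction for background has the most weight.

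**Figure D2:**
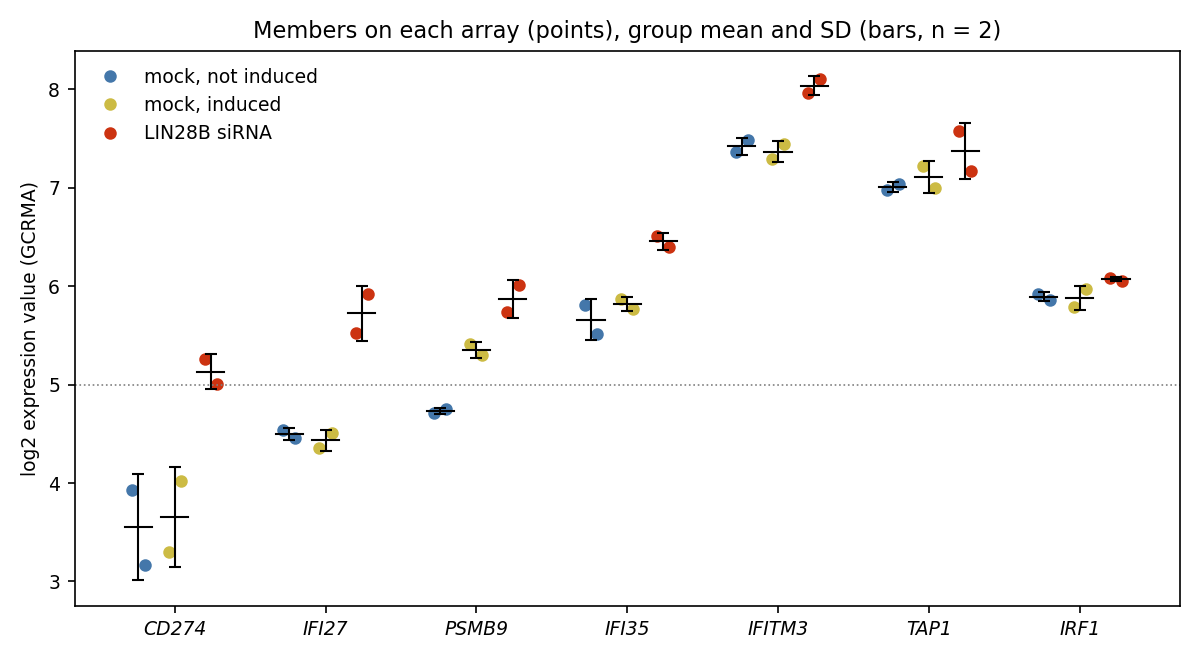
Log2 expression values of the 7 members on each of the 6 arrays; points are arrays coloured by group, horizontal bars are group means and vertical bars are SDs over 2 arrays, and the dotted line marks 5. Knockdown points lie above all mock points for every member but TAP1, and PSMB9 steps up from mock not induced to mock induced to knockdown.

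Both knockdown arrays lay above all 4 mock arrays for 6 of the 7 members, the exception being TAP1, and for 27.1% of all genes. This count describes genes that were picked with the comparison known, of which IFI27 and CD274 are in the table through the knockdown arrays. The median over members was 0.79 against cells not induced and 0.64 against induced cells, comparisons that share the knockdown arrays, and over all genes it was 0.01 in each.

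The members differed among themselves more by size than by direction. Over the 6 arrays, profiles correlated most for IFI27 and IFITM3 (Pearson r = 0.984) and for IRF1 and CD274 (r = 0.961), and least for TAP1 and IRF1 (r = 0.485). TAP1 and PSMB9 had r = 0.64. These are descriptions over 6 arrays that fall into groups, and they carry no test.

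Induction of the tagged LIN28B was tested for the members, although it shares the arrays of cells not induced. The members were chosen on earlier results from the expression values of these arrays, with the knockdown comparison known. Whether values of the induced arrays entered that choice is not stated. Member p-values for induction may thus not be independent of how the members were chosen. Limma called 0 of 7 members and 0.00% of all genes, and at an unadjusted p under 0.05 there were 1 of 7 members and 2.97% of all genes. That member was PSMB9, higher in induced cells by 0.62 (95% interval 0.25 to 1.00, SE 0.17, unadjusted p = 0.0041, limma adjusted p = 0.999). Its p was the 25th smallest of 11584 genes. PSMB9 was singled out with its knockdown result known, and it was low on both arrays of cells not induced. Low readings on those arrays raise its difference in either comparison. This p is thus not independent of how PSMB9 was chosen. Over the alternatives its difference lay between 0.566 and 0.679 and its adjusted p between 0.602 and 1, and both induced arrays were above both arrays of cells not induced.

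LIN28B itself read 10.02 and 9.85 without and 10.15 and 10.11 with induction (log2 difference 0.19, limma adjusted p = 0.999). Whether its probe set reads the transgene is not stated, so the induction itself was not checked by these arrays.

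The other members differed by 0.15 (IFI35, 95% interval -0.18 to 0.49), 0.11 (CD274, -0.61 to 0.82), 0.10 (TAP1, -0.22 to 0.43), -0.01 (IRF1, -0.32 to 0.30), -0.05 (IFITM3, -0.29 to 0.19) and -0.06 (IFI27, -0.50 to 0.37). The intervals show what these arrays could still hold, which for CD274 and IFI27 is a change of up to 0.82 and -0.50 on the log2 scale. Limma adjusted p was 0.999 for each. These small differences moved when 1 array was left out: IFI35 lay between 0.00711 and 0.303, CD274 between -0.273 and 0.49, TAP1 between -0.0114 and 0.213, IRF1 between -0.0989 and 0.0779, IFITM3 between -0.131 and 0.0237 and IFI27 between -0.14 and 0.012. All but IFI35 thus turned direction.

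**Figure D3:**
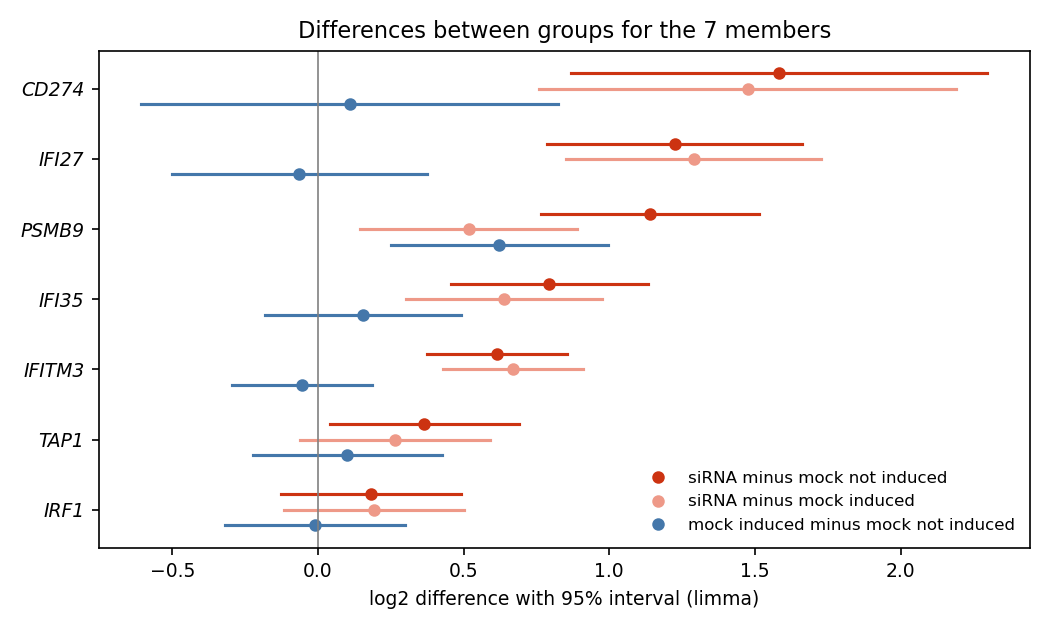
Log2 differences between groups for each member (points) with 95% intervals from limma (lines); dark red is siRNA minus mock not induced, light red is siRNA minus mock induced and blue is mock induced minus mock not induced. The blue interval of PSMB9 (0.25 to 1.00) is the one that does not reach 0, before adjustment over all genes.

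Outside the members, genes of the pathway were taken from 5 lists. Of 182 genes on them 118 were in the table. Limma called 20 higher and 10 lower in the knockdown than in mock cells not induced, so that 25.4% were called, where 28.0% of all genes were called (13.5% higher and 14.5% lower). The median was 0.07, against 0.01 over all genes. Against induced cells 16 were higher and 8 lower, or 20.3% called, where 28.4% of all genes were (14.0% higher and 14.5% lower). With arrays centred on their medians that split was 24 higher and 7 lower, and without the intensity trend 9 higher and 7 lower. Single arrays moved these counts, and those over all genes with them. Against cells not induced they fell most when 1 array of the knockdown was left out. Against induced cells they fell when 1 array of the knockdown or of the induced cells was left out. Induction called 0 of the 118 and 0.00% of all genes, with 3 of the 118 and 2.97% of all genes at an unadjusted limma p under 0.05. No interferon gene, of 10 looked for, was in the table, and these were not analysed here, nor were STAT2, JAK2, MX1, OAS1, NLRC5, PSMB8 and PDCD1LG2.

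**Figure D4:**
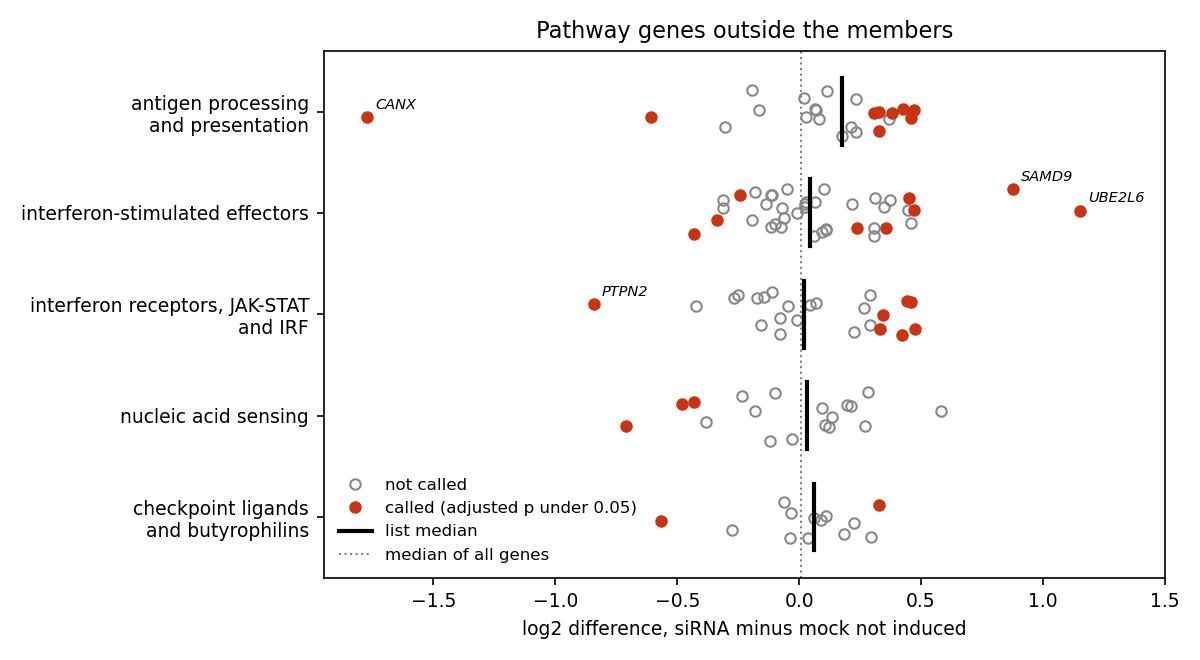
Log2 difference, siRNA minus mock not induced, of each pathway gene outside the members (points, spread vertically at random within a list), filled where called by limma at an adjusted p under 0.05; black bars are list medians and the dotted line is the median of all genes. The antigen processing list has a median of 0.18 with CANX far to the left at -1.77, and UBE2L6 at 1.15 is the highest of the effectors.

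In the antigen processing and presentation list, 7 of 23 genes rose, 2 fell and 14 did not pass, where 13.5% of all genes were called higher and 14.5% lower. The list median was 0.18. HLA class I genes and their light chain rose. B2M, the light chain, read 12.18 and 12.21 in mock cells not induced and 12.53 and 12.49 in the knockdown, a rise of 0.31 (SE 0.04, limma adjusted p = 0.000416). The heavy chain gene HLA-B rose by 0.47 (SE 0.08) from 9.26 and 9.32 to 9.85 and 9.67, and HLA-C by 0.43 (SE 0.06). HLA-F, HLA-G and the class II gene HLA-DRB1, named here after their values were seen, rose by 0.33, 0.33 and 0.38. HLA-E had 0.21 (adjusted p = 0.0927 by limma). HLA-G did not pass against induced cells (limma adjusted p = 0.101). The probe sets of these HLA genes can pick up transcripts of one another, so they may not be separate measurements.

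Without replicate 1 of the knockdown fewer of the 23 were called, as were fewer of all genes. PDIA3, a chaperone of the peptide loading complex, rose by 0.46 (limma adjusted p = 0.0284, and 0.0557 against induced cells). CANX, the calnexin gene, which helps class I heavy chains to fold, fell by 1.77 (SE 0.07), from 9.99 and 9.84 to 8.15 and 8.14. PSMB10, an inducible catalytic subunit like PSMB9, fell by 0.61 (SE 0.11), from 7.68 and 7.52 to 7.06 and 6.92. TAP2, the partner of TAP1, had -0.16 (SE 0.12, limma adjusted p = 0.339), and TAPBP, which links TAP to class I, had 0.02, which turned to -0.06 without replicate 1 of the cells not induced and to -0.04 without replicate 1 of the knockdown.

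The constitutive subunits that give way to the inducible ones were set beside PSMB9. PSMB6, which PSMB9 replaces, rose by 0.43 (SE 0.05, limma adjusted p = 0.000449), from 10.74 and 10.84 to 11.21 and 11.23. PSMB5 had 0.10 (adjusted p = 0.184 by limma) and PSMB7, which PSMB10 replaces, had 0.04, which turned to -0.08 without replicate 2 of the knockdown. So 1 of 3 rose against cells not induced, where 13.5% of all genes were called higher. Against induced cells 2 of 3 rose, where 14.0% of all genes were called higher. These were PSMB6 by 0.48 and PSMB5 by 0.17 (limma adjusted p = 0.000255 and 0.0323). Both members of the PSMB9 and PSMB6 exchange read higher in the knockdown.

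The list of interferon-stimulated effectors had 40 genes outside the members, with a median of 0.04. Of these 6 rose, 3 fell and 31 did not pass, so that 22.5% were called, where 28.0% of all genes were. The rise was largest for UBE2L6, the conjugating enzyme for ISG15, from 5.79 and 5.68 to 6.97 and 6.80 (1.15, SE 0.14, limma adjusted p = 0.000378). SAMD9, an antiviral gene, rose by 0.88 (SE 0.25), IFIT1, which binds foreign RNA, by 0.47 and DTX3L, a ubiquitin ligase, by 0.45. IFIT1 and DTX3L did not pass against induced cells (limma adjusted p 0.0736 and 0.0635). PLSCR1, a scramblase gene, fell by 0.43. ADAR, ZC3HAV1 and HERC5, also called and named after their values were seen, had -0.24, -0.34 and 0.24. IFITM1, next to IFITM3 in a family cluster, rose by 0.36 (SE 0.09), while IFITM2 had 0.11 (SE 0.11, limma adjusted p = 0.494). The probe sets of the IFITM genes can pick up related transcripts, so they may not be separate measurements. ISG15, the ubiquitin-like modifier that UBE2L6 conjugates, had -0.31 (SE 0.13, adjusted p = 0.108 by limma) and IFI6 had -0.10. Fewer effectors were called when either knockdown array was left out, as were fewer of all genes.

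Of 24 genes for interferon receptors, JAK-STAT and IRF factors, 6 rose, 1 fell and 17 did not pass, and their median was 0.02. The share called was 29.2%, near the 28.0% of all genes. When either knockdown array was left out, fewer of the 24 and fewer of all genes were called. The receptor genes IFNAR1 and IFNGR2 rose by 0.42 (SE 0.13) and 0.33 (SE 0.07), the kinase gene JAK1 by 0.46, STAT3 by 0.47 and IRF8 by 0.44. The remaining gene called higher, PIAS1, named after its value was seen, rose by 0.34 (SE 0.09, limma adjusted p = 0.0171). PTPN2, a phosphatase that restrains JAK kinases, fell by 0.84 (SE 0.10), from 8.49 and 8.61 to 7.65 and 7.77. IFNGR1 had -0.11, IRF2 0.05, IRF3 -0.27 and IRF9 0.29, none passing (limma adjusted p 0.537, 0.87, 0.136 and 0.14). IFNGR1 had 0.07 without replicate 1 of the cells not induced. IRF2 had -0.01 without replicate 2 of those cells and -0.06 without replicate 1 of the knockdown. Against induced cells IFNAR1 had 0.19 and did not pass (limma adjusted p = 0.329). IRF8 read 6.30 and 6.30 in cells not induced, 6.86 and 6.56 in induced cells and 6.67 and 6.81 in the knockdown, so that the difference from induced cells was 0.03, and it was 0.23 with all 4 mock arrays as reference.

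Of 18 genes that sense nucleic acids or relay the signal, 0 rose, 3 fell and 15 did not pass, around a median of 0.03. The share called was 16.7%, where 28.0% of all genes were called. The count of 3 called was 1 without replicate 2 of the knockdown and 7 with all 4 mock arrays as reference. TANK, an adaptor of the kinase TBK1, fell by 0.71 (SE 0.15) and MAVS, the adaptor of RIG-I-like receptors, by 0.48. IRAK1, a kinase below Toll-like receptors, fell by 0.43. Against induced cells 1 of the 18 rose and 1 fell, or 11.1% called, where 28.4% of all genes were. These were DDX3X (0.29), named after its value was seen, and IRAK1 (-0.43). TANK (-0.31) and MAVS (-0.42) did not pass there (limma adjusted p 0.162 and 0.064). Of 13 checkpoint ligand and butyrophilin genes beside CD274, 1 rose, 1 fell and 11 did not pass, around a median of 0.06. That is 15.4% called, where 28.0% of all genes were. Neither call held when single arrays were left out in turn, and fewer of all genes were called in each of those fits. BTN2A1 rose by 0.33 (SE 0.09) and BTN3A3 fell by 0.57 (SE 0.19, limma adjusted p = 0.0484, and 0.157 against induced cells). CD276, another B7 family ligand, had -0.04, a value that turned with the arrays used: 0.24 without replicate 2 of the cells not induced, 0.06 without replicate 2 of the knockdown and 0.03 with all 4 mock arrays as reference.

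Of the 23 called pathway genes named here by rule, 14 lost their call when 1 array was left out: BTN2A1, BTN3A3, DTX3L, IFIT1, IFITM1, IFNAR1, IRAK1, IRF8, JAK1, MAVS, PDIA3, PLSCR1, SAMD9 and TANK. IFIT1, MAVS and SAMD9 had 0.265, -0.259 and 0.497 when replicate 2 of the cells not induced was left out, smaller than with both arrays by over 1.5 times. The calls of B2M, HLA-B, HLA-C, CANX, PSMB10, UBE2L6, STAT3, IFNGR2 and PTPN2 held under every alternative run. Genes that did not pass moved as well when 1 array was left out: TAP2 lay between -0.274 and -0.0531, ISG15 between -0.449 and -0.173, IFITM2 between 0.00623 and 0.211 and IFI6 between -0.174 and -0.0258. IRF9 lay between 0.161 and 0.419, IRF3 between -0.36 and -0.172 and PSMB5 between 0.0526 and 0.146.

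Markers were looked at for other cells. Of 9 leukocyte and blood markers 2 were in the table, CD79A and HBB, with a summed linear signal of 63.0 to 68.0 in mock cells not induced, 66.3 to 72.3 in induced cells and 75.2 to 76.5 in the knockdown, and neither gene passed. Of 6 fibroblast markers COL1A1 was in the table and did not pass, and 0 of 4 endothelial markers were. The part of such cells in the results was not tested. Of 10 epithelial and neuronal markers of HEK293 cells, 7 were in the table. In the knockdown against cells not induced limma called 2 of these higher, KRT8 (0.38) and EPCAM (0.28). It called 3 lower, NCAM1 (-1.13), NEFL (-0.59) and VIM (-0.18), while KRT18 (0.03) and CDH2 (-0.23) did not pass. That is 71.4% called, where 28.0% of all genes were. CDH1, NEFM and PAX2 were not analysed here.

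For each member the genes of most similar pattern were sought by the distance between profiles centred on their mean over the 6 arrays. IFI27 lay nearest to IER3, an immediate early gene (distance 0.24 on the log2 scale, log2 difference from cells not induced 1.31), and ATL3. IFITM3 lay nearest to ZNF222 (distance 0.08) and GARIN5A, and IFI35 to SELENOM and KITLG (0.12 each). PSMB9 lay nearest to EPAS1, a hypoxia-inducible factor gene (0.25), and TIMP2 (0.27), both also higher in induced than in not induced cells. TAP1 lay nearest to ACP2 and MEX3B, IRF1 to MAD1L1 and PRPH, and CD274 to DIRAS3 (0.39) and LRIG3. These neighbours, sought among 11584 genes over 6 arrays, carry no test.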

How the data were processed

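Gene expression was measured in 6 samples on 1 array each. The values used are the log2 values per probe set that the authors deposited; affy and GCRMA are the tools in the submitters' processing notes, and their versions are not given in the sources used here. The GCRMA method corrects background by probe sequence, brings arrays to a common distribution and summarises probes. Base 2 was taken as the base GCRMA returns. The table holds 13008 probe sets, of which 11719 had 1 gene symbol in the platform annotation, 609 several and 680 none. Those with 1 symbol stood for 11584 genes, 11578 of them matched to the RefSeq table (GRCh38.p14) for current symbols. The probe set of highest mean stood for a gene. A filter (above 4 on at least 2 arrays) removed 0 genes.

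Genes were tested in limma 3.58.1 under R 4.3.3 (lmFit, eBayes with intensity trend) in 1 model of 3 groups, two-sided, with Benjamini-Hochberg adjustment over all genes and a call at an adjusted p under 0.05. The model had 3 residual and 6.73 prior degrees of freedom and was tested on simulated data. Errors after SE are from the model, SDs are over 2 arrays, and the number of arrays limits the precision. The members and gene lists were chosen with earlier results of these data known. Named genes were all members, a fixed set of pathway genes, up to 5 called genes of largest change per list and the 2 nearest profiles per member. Alternatives covered scaling, filters, probe set averaging, trend, arrays used, the replicate number as a block and leaving out each array.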

Additional observations from a re-analysis of the deposited data

How the results depend on the processing

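The differences of the 7 members between knockdown and either mock group stayed above 0 under every alternative run. The members were singled out with the knockdown known, and IFI27 and CD274 are in the table through the knockdown arrays. Every alternative reuses these arrays, so that the sign held is a description and carries no test. The median over members against cells not induced was 0.794 and lay between 0.677 and 0.942 when 1 array was left out. It was 0.491 with a filter above 6 on at least 2 arrays, which leaves fewer members. Without 1 array the genes called over the whole table lay between 1664 and 3143 against cells not induced, between 1702 and 3951 against induced cells, and between 0 and 1 for induction. Pathway genes called lay between 11 and 27, between 12 and 35, and at 0 for these comparisons. CD276 lay between -0.315 and 0.238, IFNGR1 between -0.29 and 0.066, IRF2 between -0.0558 and 0.146, PSMB7 between -0.0781 and 0.165 and TAPBP between -0.0551 and 0.0983, each turning direction, as did CD276 with all 4 mock arrays as reference (0.0269). Where an array was left out, the lone array of that group is assumed to vary like the others. The cause of these shifts was not tested.

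The replicate numbers are shared between groups, but the differences between replicates 1 and 2 correlated between groups at -0.0568 to 0.181, and the numbers were not taken as pairs. With the replicate number as a block 3422 genes were called against cells not induced, 3491 against induced cells and 0 for induction; pathway genes called were 31, 27 and 0, and BTN3A3 lost its call. The number of arrays and, for CD274, IFI27 and PSMB9, signal near background limit these results.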

Other observations

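Some HLA class II genes, which B cells and other antigen-presenting cells use, were in the table. They were named here after their values were seen. HLA-DRA, HLA-DMA, CD74 and CIITA were looked for too and were not among the genes tested. The probe set of HLA-DRB1 may also read transcripts of related genes, and whether the cells make class II proteins was not tested. HLA-DRB1 read 8.24 and 8.05 in mock cells not induced, 7.92 and 7.96 in induced cells, and 8.56 and 8.49 in the knockdown, where it rose by 0.38 against cells not induced and by 0.58 against induced cells (limma adjusted p = 0.0141 and 0.00173). HLA-DMB, HLA-DPA1 and HLA-DPB1 had 0.37, 0.23 and 0.06 against cells not induced and did not pass (limma adjusted p = 0.0713, 0.182 and 0.613). RIGI, the sensor of viral RNA, read 5.25 and 5.79 in cells not induced and 6.27 and 5.94 in the knockdown, a difference of 0.58 that did not pass (adjusted p = 0.0541 by limma). IL10RB, a subunit of the interferon lambda receptor, read 6.66 and 6.58 in cells not induced, 6.99 and 7.10 in induced cells and 6.48 and 6.45 in the knockdown. Its difference between knockdown and cells not induced was -0.16 and did not pass (limma adjusted p = 0.344). Against induced cells it was lower by 0.58 in the knockdown. Its difference between the mock groups was 0.42 with an unadjusted limma p of 0.00437 that did not pass after adjustment. RIGI and IL10RB were also named after their values were seen.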
